A study of Mus musculus with 11 samples.

Results

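The comparison concerned mononuclear phagocytes, the macrophages, dendritic cells and monocytes of a tissue, sorted from opposite ends of the mouse epididymis. The members were chosen by the region label alone: 4 libraries from the initial segments (IS), the part next to the testis, and 4 from the cauda, the far end, which makes 8 of the 11 libraries of the series. The other 3 libraries came from the caput/corpus in between. Those 3 entered the fit for its estimate of the spread, and their levels are given as those of the middle region. All groups were taken from mice aged 12 weeks with the genotype CX3CR1 EGFP +/-, in which EGFP is made under the control of the Cx3cr1 gene, so all cells carried this reporter and no untreated or wild-type group was compared. EGFP+ cells went through double cell sorting, 4 epididymides were pooled for a library, and RNA was purified with a PicoRNA kit and made into libraries with the SMARTER kit v4. The gate follows the activity of 1 locus and not a cell type, and the labels do not name the animals, so p-values measure the spread between these pooled libraries.

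Sperm leaving the testis mature and are stored in the epididymis, a single long coiled duct. The epithelium of the IS takes up testicular fluid and secretes proteins onto sperm, while the cauda is the store. Phagocytes lie in and under this epithelium, where they are known to sample the lumen, clear dying epithelial cells and present antigen, in a tissue that has to tolerate sperm proteins and still answer to infection ascending from the distal end.

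The IS libraries held 17618698 to 28820336 reads on genes and the cauda libraries 16873180 to 31737132. Sample titles fall into 2 series, Maj3 and Maj4, each with 2 IS and 2 cauda libraries, and the series was a term of the fit. Cauda replicate 1, of Maj3, stood apart: it had reads on 13434 genes against 17168 to 17789 in the other cauda libraries, and its score on the first principal component, which held 52.9% of the variance, was 133.8 against -41.0 to 16.3 for the other 10 libraries. For 3 Maj3 libraries, IS replicate 2, cauda replicate 1 and caput/corpus replicate 1, different reads were held by the count file of the sample and by its column in the deposited RPKM table. The reads behind the named column were used. Of the 11 columns, 10 equalled some count file. Maj4 file numbers start again at 1 and were counted on from those of Maj3. Numbered in this way, all 10 count files carried the number of their column. Fitted on the 8 libraries whose file and column held the same reads, the contrast gave 2409 called genes, of which 1926 were also called in the fit of all 11. From the count files as labelled, only 4 genes were called (3098 at an unadjusted p under 0.05), and Tnfaip3, Ier2, Dusp1, Bhlhe40 and Lcn5 changed sign. Every result below therefore rests on the column labels. Of the 155 genes named below as higher in 1 region, 152 were also called in the 8 libraries with 1 source of reads (not Adgre1, Ptprc and Atp6v0e) and 154 without cauda replicate 1 (not Ptprc).

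Of 15116 genes tested, 2488 (16.5%) differed between IS and cauda with edgeR's quasi-likelihood test at an adjusted p under 0.05 (called). Of these, 1119 (7.4% of those tested) were higher in IS and 1369 (9.06%) were higher in cauda. These shares are the background for the counts of each gene list below. At least 2-fold differences were seen for 1419, 799 of them higher in IS and 620 higher in cauda. The 4 values of each group did not overlap for 10.5% of the genes tested with IS above and 8.13% with cauda above. The median log2 fold change of all genes tested was 0.05, and log2 values are IS minus cauda throughout. Where 2 mean levels of a gene are set against each other, the IS mean comes first. The mean of the caput/corpus libraries lay between the IS and cauda means for 2258 of the 2488 called genes, a position that their choice partly fixes. The share over all genes tested was not counted. A test of whether the difference between IS and cauda itself differed between Maj3 and Maj4 called 0 of 13901 genes with edgeR (310 at an unadjusted p under 0.05). In bulk RNA, fewer cells of a type and less RNA per cell cannot be told apart.

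**Figure D1:**
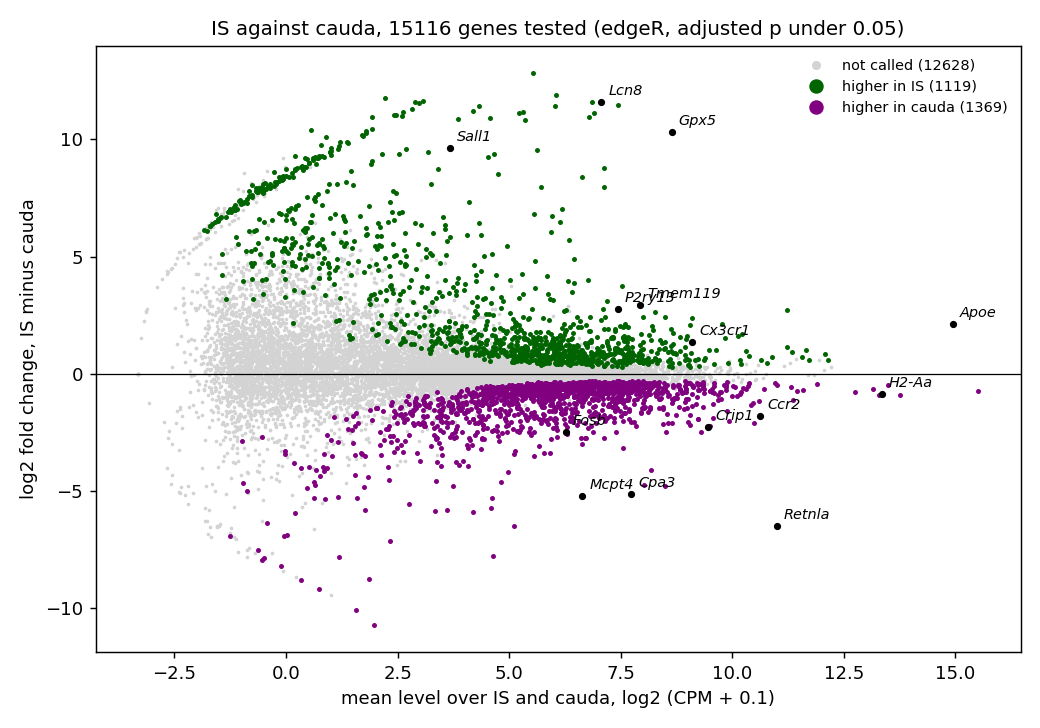
Log2 fold change (IS minus cauda, vertical axis) of each of the 15116 genes tested against its mean level over both groups (log2 of CPM plus a small constant, horizontal axis), with the 1119 genes higher in IS in green, the 1369 higher in cauda in purple and named genes in black. The genes far above the bulk are mostly low in level, and their curved upper edge holds genes with next to no reads in cauda, whose fitted fold change depends on the prior count. Apoe, Retnla and Gpx5 combine a high level with a large difference.

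Cx3cr1 (ENSMUSG00000052336), the receptor for the chemokine CX3CL1 and the locus on which the sort rests, was read in every library. Its level was 888, 621, 820.1 and 825 CPM (reads on the gene per scaled library size) in the 4 IS libraries and 339.7, 272, 371 and 266 CPM in the 4 cauda libraries, and 551, 328 and 378 CPM in caput/corpus. All 4 IS values lay above all 4 cauda values, so the cells sorted from the IS carried 2.53 times the level of the cells from the cauda (log2 fold change 1.34 ± 0.19 SE, adjusted p = 0.00101). Csf1r, the receptor for the macrophage growth factors CSF1 and IL-34, stood at 3251, 3250.2, 3648 and 2944 CPM in IS and 949, 1435, 1929 and 1667 CPM in cauda, again without overlap (log2 fold change 1.14 ± 0.21 SE, adjusted p = 0.0047). Of the 21 general macrophage genes, 9 (42.9%) were higher in IS and 2 (9.52%) higher in cauda, with a median log2 of 0.37. The shares over all genes were 7.4% and 9.06%, so the cauda count was near the background. The count in cauda was 0 without IS replicate 4, cauda replicate 2 or cauda replicate 4 and 1 in 7 of the other 8 fits that left out 1 library. The uptake kinase gene Mertk (log2 2.00), the transcription factor gene Maf (0.87) and the high-affinity Fc receptor gene Fcgr1 (0.72) rose toward the IS. Adgre1, which encodes F4/80, was higher in IS by 0.66 (adjusted p = 0.0168), a call that was lost without IS replicate 1, IS replicate 3 or cauda replicate 2, where adjusted p reached 0.0565, and in the 8 libraries with 1 source of reads. The macrophage master regulator Spi1 (-0.08, adjusted p = 0.593), the integrin gene Itgam (0.21, 0.375) and the endotoxin co-receptor gene Cd14 (0.05, 0.803) did not pass the test. The pan-leukocyte gene Ptprc (CD45) was present in all 8 libraries, at 589.8 to 762 CPM in IS and 747 to 934 CPM in cauda. Its call (log2 -0.40, adjusted p = 0.0493) was at the threshold and was lost in 10 of the 11 fits that left out 1 library. The sorted cells thus carried leukocyte and macrophage genes in every library.

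**Figure D2:**
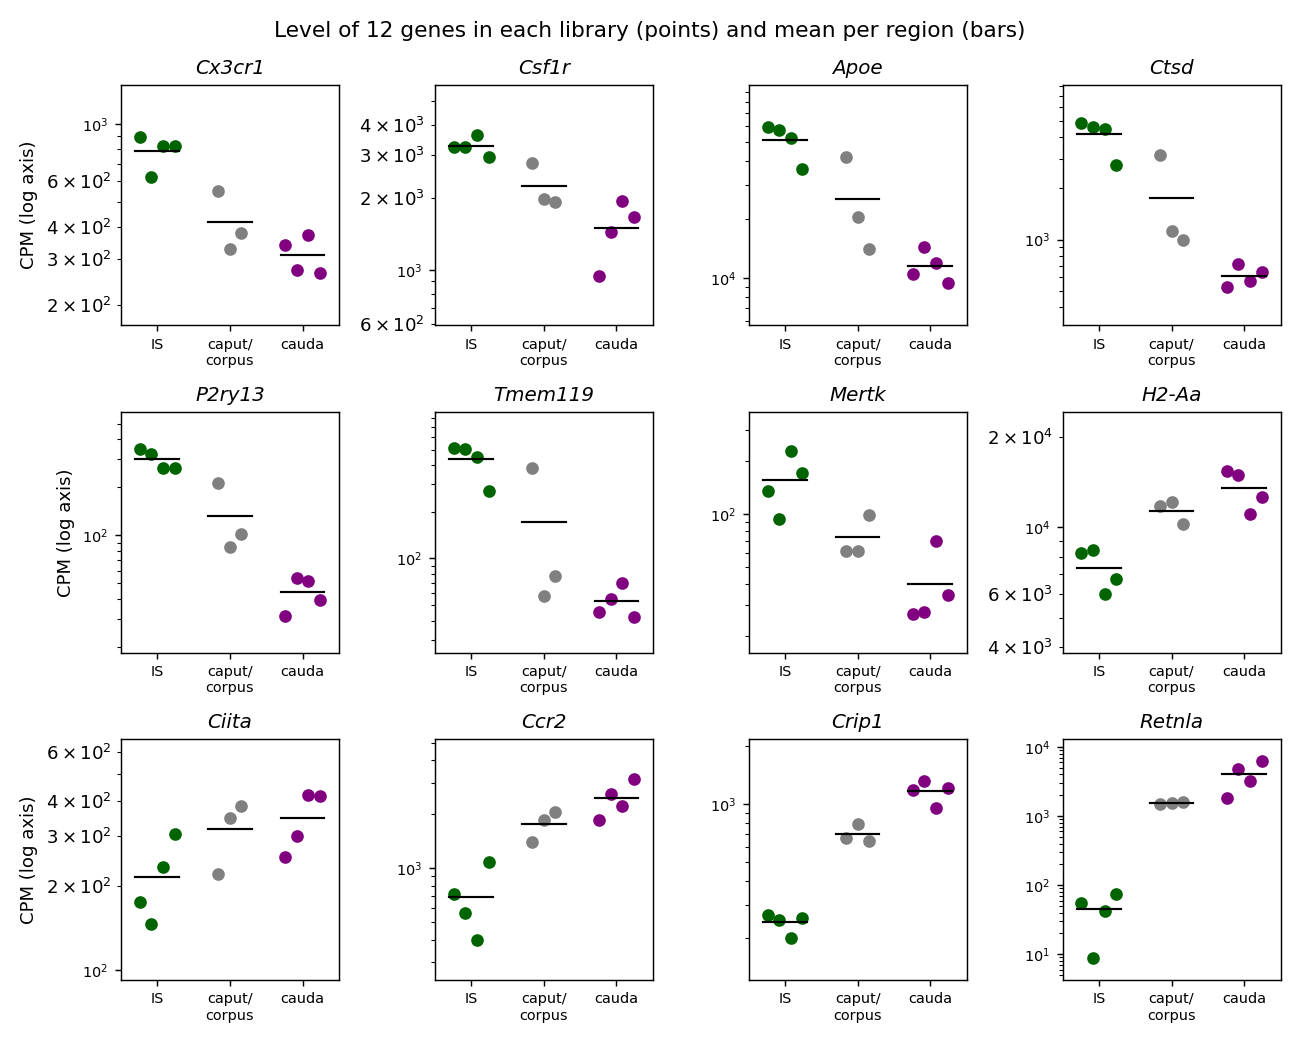
Level of 12 genes (CPM, log axis, scaled per panel) in each IS, caput/corpus and cauda library (points), with the mean of each region (bars). The first 7 genes are higher in all 4 IS libraries than in any cauda library, H2-Aa, Ccr2, Crip1 and Retnla are the reverse, and for Ciita the ranges overlap.

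Genes best known from brain microglia marked the IS cells most plainly. Of the 16 genes in that list, 15 were higher in IS and 0 higher in cauda, with a median log2 of 2.35 against 0.05 over all genes. Over the 11 fits that left out 1 library, 12 to 15 were called. P2ry13, a receptor for ADP, stood at 350.2, 325, 264 and 265 CPM in IS and 31.1, 53.8, 51.5 and 39.4 CPM in cauda, and its neighbour P2ry12, the ADP receptor that steers microglial processes, at 536, 491, 398 and 304 CPM and 37.8, 104, 110.0 and 57.3 CPM. Neither gene's IS values overlapped its cauda values (P2ry13: log2 fold change 2.75 ± 0.26 SE, adjusted p = 0.000149; P2ry12: log2 fold change 2.40 ± 0.43 SE, adjusted p = 0.00417). The surface protein gene Tmem119 measured 511, 505, 444 and 271 CPM in IS and 45.3, 55.0, 69.6 and 42.3 CPM in cauda (log2 fold change 2.94 ± 0.47 SE, adjusted p = 0.00203). In caput/corpus its 3 values were 381, 57.4 and 76.8 CPM, with replicate 1 near the IS level and the other 2 near the cauda level. Olfml3, a secreted matrix protein (344 ± 72.1 CPM in IS and 24.7 ± 13.4 CPM in cauda), and Sparc, another matrix protein (151 ± 90.9 CPM in IS and 9.39 ± 7.90 CPM in cauda), were each higher in all 4 IS libraries. Sall1, a zinc finger factor that holds microglia in their state, had 2213 reads in the IS libraries, at 7.75, 6.99, 42.7 and 43.9 CPM, and 2 reads in the cauda libraries, a ratio of 1120.0 after scaling (95% counting interval 309.7 to 9254). The 1 member that was not called was Cst3, the protease inhibitor cystatin C (3624 against 3715 CPM, log2 -0.04). Stromal and endothelial markers also summed higher in IS (172 to 623 against 22.1 to 92.7 CPM). Their part in Sparc and the rest of this list was not tested.

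Transforming growth factor beta is the signal that induces this gene set in the brain. The 2 chains of its receptor both rose toward the IS: Tgfbr1, at 542, 368, 859.7 and 733 CPM against 120.3, 105, 291 and 158 CPM (log2 fold change 1.91 ± 0.25 SE, adjusted p = 0.000744), and Tgfbr2, at 622 ± 125 CPM in IS and 360.3 ± 99.4 CPM in cauda (log2 fold change 0.80 ± 0.15 SE, adjusted p = 0.00488). The ligand gene Tgfb1 did not pass the test (182 against 158 CPM, log2 0.19). Skil, a feedback repressor of the pathway, was higher in IS (201 against 99.4 CPM, log2 1.07), and Nrros, which anchors latent ligand on myeloid cells, was higher in cauda (460.2 against 656 CPM, log2 -0.50). Of the 20 pathway genes, 5 were higher in IS and 3 in cauda, with a median log2 of 0.84; the IS count stayed between 4 and 6 when 1 library was left out, while the cauda count fell to 1 without IS replicate 1, 2 or 3.

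Receptors and bridges take up dying cells. Of 20 such genes, 9 rose toward the IS and 0 toward the cauda, and the median log2 was 1.26. Mertk and Axl encode kinases that bind phosphatidylserine through bridging proteins. Mertk stood at 135, 92.9, 228 and 170.4 CPM in IS and 27.0, 27.7, 69.6 and 34.3 CPM in cauda (log2 fold change 2.00 ± 0.25 SE, adjusted p = 0.000594). Axl stood at 1441, 1339.6, 1429 and 1242 CPM and 261, 491, 609.8 and 557 CPM (log2 fold change 1.51 ± 0.25 SE, adjusted p = 0.00248), with no overlap for either gene. Mfge8, a bridge between phosphatidylserine and integrins (240.0 ± 117 CPM in IS and 34.4 ± 13.9 CPM in cauda, log2 2.74), rose along with Itgb5, the beta chain of a receptor for it (607 ± 74.0 CPM in IS and 112 ± 26.6 CPM in cauda, 2.44). The scavenger receptor genes Stab1 (2.11) and Msr1 (1.90) were higher in IS as well. Gas6, the bridge to Mertk and Axl (346 against 195 CPM, log2 0.82, adjusted p = 0.179), and Cd36 (474 against 309.8 CPM, log2 0.49, 0.341) did not pass the test.

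Complement genes lay mostly on the IS side, 16 of 18 tested with a log2 above 0, as had 8038 of all 15116 genes tested. C1qa and C1qc, chains of the C1q recognition molecule, were higher in IS (log2 0.91 and 1.01), while C1qb, the remaining chain, just missed the threshold (4776 against 3043 CPM, log2 0.61, adjusted p = 0.054). Cfp, which encodes properdin, the stabiliser of the alternative pathway, was higher in cauda (184 ± 44.9 CPM in IS and 517 ± 109 CPM in cauda, log2 -1.49). In all, 4 of the 18 (22.2%) were called in favour of IS and 1 (5.56%) in favour of cauda. The shares over all genes were 7.4% and 9.06%. The IS count rose to 7 without cauda replicate 1 and fell to 2 when any 1 of 5 other libraries was dropped (IS replicates 1 to 3, the first caput/corpus library or the last of cauda).

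Lysosomal proteases digest what phagocytes take up, and 9 of 18 genes for them and their inhibitors were higher in IS and 0 in cauda (median log2 0.63; 9 to 10 with 1 library left out). Ctsd (ENSMUSG00000007891), the aspartic protease cathepsin D, stood at 4852, 4568, 4478 and 2731 CPM in IS and 523, 716, 573 and 643 CPM in cauda. The lowest IS library was 3.82 times the highest cauda library, and the fitted difference was 6.61-fold (log2 fold change 2.72 ± 0.29 SE, adjusted p = 0.000256). The cysteine proteases followed: Ctsf (2.36), Ctsl (1.54), the asparagine-specific Lgmn (0.99), Ctss, which trims the invariant chain (0.86), and Ctsb (0.71). Ctsh did not pass the test (1103 against 1083 CPM, log2 0.03). As examples of their promoters, the bases before the starts of Ctsd and Ctsf, the members with the largest log2 values among those named, are shown from RefSeq (GRCm38.p6), 5′ to 3′, with the E-box CACGTG in capitals. That palindrome is the core of the motif bound by the lysosomal regulators TFEB and TFE3. The stretch of Ctsd lies at chr7:142387828-142387977 on the minus strand and that of Ctsf at chr19:4855015-4855164 on the plus strand.
Ctsd: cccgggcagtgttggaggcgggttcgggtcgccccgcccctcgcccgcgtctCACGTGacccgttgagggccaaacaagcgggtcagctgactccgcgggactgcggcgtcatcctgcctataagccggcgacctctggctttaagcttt
Ctsf: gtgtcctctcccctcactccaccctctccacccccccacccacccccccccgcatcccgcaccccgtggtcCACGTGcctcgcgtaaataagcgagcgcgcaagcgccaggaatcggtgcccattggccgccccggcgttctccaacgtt
CACGTG was found within 250 bases before the start in 5 of the 15 protease-list genes with an entry (Ctsa, Ctsd, Ctsf, Ctsl and Lgmn), which is 33.3%, and in 6.02% of all 32851 promoters in that table. In the lysosomal hydrolase list described next it was found in 6 of the 19 genes with an entry (31.6%). A listed gene counted if any of its promoters held the motif, whereas the share over the table is per promoter. A match is a description of these letters and not of binding.

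Other lysosomal genes were less uniform. Among 25 hydrolases of sugars and lipids, 11 were higher in IS, with the galactosylceramidase Galc (1.29) and the glucuronidase Gusb (0.91) among them. Psap, the precursor of the saposins (log2 -0.44, adjusted p = 0.022), was among the 3 (12%, against 9.06% of all genes) that were higher in cauda. Their count was 1 without cauda replicate 2. The IS count fell to 5 without IS replicate 4 or cauda replicate 4, to 6 without IS replicate 1 or 2 and to 7 without IS replicate 3 or cauda replicate 2, and Psap lost its call without any of IS replicates 1, 3 and 4 and cauda replicates 2 and 4 (adjusted p up to 0.0759). The membrane proteins Cd63 (1.57) and Slc11a1, the NRAMP1 metal pump of phagosomes (1.08), were higher in IS, and Lamp1 did not pass (0.44, adjusted p = 0.0556). Of the 16 genes of the proton pump that acidifies lysosomes, 0 were higher in IS and 1 (6.25%, against 9.06% of all genes) in cauda. That 1 gene, Atp6v0e (log2 -0.43, adjusted p = 0.0198), lost its call without either of IS replicates 2 and 4 and cauda replicates 2 and 4 (adjusted p up to 0.0597), and the IS count was 2 without cauda replicate 1 and 1 without cauda replicate 2. The pump's median log2 was 0.11.

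Apoe (ENSMUSG00000002985), the lipid carrier that macrophages load with effluxed cholesterol, measured 59495, 57500.4, 52199 and 36227 CPM in IS and 10485, 14419, 12036 and 9419 CPM in cauda. All IS values lay above all cauda values, a 4.38-fold difference (log2 fold change 2.13 ± 0.24 SE, adjusted p = 0.000355). Its neighbour Apoc1 (25.8 against 2.18 CPM, log2 3.55), the cholesterol exporter Abca1 (669 against 240.2 CPM, log2 1.58), the LDL receptor-degrading ligase Mylip (167 against 62.2 CPM, log2 1.45) and the oxysterol-forming hydroxylase Ch25h (37.4 against 8.09 CPM, log2 2.24) were also higher in IS. They were among 7 of 24 lipid-handling genes called in favour of IS, with 3 in favour of cauda (12.5%, against 9.06% of all genes). That cauda count was 1 without IS replicate 1, IS replicate 2, cauda replicate 2 or cauda replicate 4. The phospholipid transfer protein Pltp went the other way (303 ± 53.4 CPM in IS and 796 ± 224 CPM in cauda, log2 -1.39). Among 17 genes of cholesterol synthesis and its control, 4 were higher in cauda and 0 in IS, with a median log2 of -0.56. The regulator Srebf2 stood at 85.3, 77.1, 103 and 154 CPM in IS and 210.5, 227, 252 and 267 CPM in cauda, without overlap (log2 fold change -1.22 ± 0.15 SE, adjusted p = 0.000577). The cauda count was 7 without cauda replicate 1, 2 without cauda replicate 4 and 1 without IS replicate 1 or 3.

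The MHC class II pathway presents antigen to T cells. Of 14 MHC class II pathway genes, 11 were higher in cauda and 0 in IS, with a median log2 of -0.77, and the cauda count was 11 in each fit that left out 1 library. The chains H2-Aa, H2-Ab1 and H2-Eb1, which display peptides to CD4 T cells, were at 7341, 9467 and 6898 CPM on average in IS and at 13536, 18151 and 13015 CPM in cauda. For H2-Aa the libraries were at 8198, 8417, 6021 and 6727 CPM in IS and 15415, 14949.8, 11114 and 12666 CPM in cauda. The 4 cauda values lay above the 4 IS values (log2 fold change -0.88 ± 0.11 SE, adjusted p = 0.000515), as they did for H2-Ab1 (log2 -0.91), H2-Eb1 (-0.91) and the invariant chain Cd74 (-0.75). The differences were wider for the peptide-loading chain H2-DMb2 (87.1 ± 24.3 CPM in IS and 270.2 ± 88.5 CPM in cauda, -1.61) and for H2-Oa (46.0 ± 9.35 CPM in IS and 132 ± 46.8 CPM in cauda, -1.46). H2-DMb2 has a near-identical copy, so its share of the reads is uncertain. Ciita, the transactivator that switches the pathway on, was at 175, 146, 233 and 305 CPM in IS and 253, 301, 419 and 417 CPM in cauda, with overlapping ranges (log2 fold change -0.71 ± 0.11 SE, adjusted p = 0.00214). Rfx5, a factor that recruits it to the promoters, did not pass the test (25.4 against 26.3 CPM, log2 -0.06). To show what these promoters share, 150 bases before the start are given for 4 of the called genes, from RefSeq (GRCm38.p6), 5′ to 3′, with TGATTGG, the core of the Y box that CIITA-dependent promoters carry, in capitals. They lie with H2-Aa at chr17:34287824-34287973 on the minus strand, H2-Eb1 at chr17:34305717-34305866 on the plus strand, H2-DMb2 at chr17:34145099-34145248 on the plus strand and H2-Oa at chr17:34092229-34092378 on the plus strand.
H2-Aa: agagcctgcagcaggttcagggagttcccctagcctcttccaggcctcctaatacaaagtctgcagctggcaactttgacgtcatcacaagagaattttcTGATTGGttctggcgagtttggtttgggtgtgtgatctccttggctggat
H2-Eb1: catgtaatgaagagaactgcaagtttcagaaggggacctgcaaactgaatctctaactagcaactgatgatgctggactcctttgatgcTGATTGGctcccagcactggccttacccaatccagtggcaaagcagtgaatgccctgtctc
H2-DMb2: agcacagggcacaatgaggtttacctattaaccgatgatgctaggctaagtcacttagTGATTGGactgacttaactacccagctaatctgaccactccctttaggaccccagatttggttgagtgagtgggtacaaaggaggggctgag
H2-Oa: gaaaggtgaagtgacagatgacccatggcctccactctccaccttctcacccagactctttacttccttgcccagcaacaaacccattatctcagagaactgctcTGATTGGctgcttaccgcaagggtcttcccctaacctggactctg
Searched on both strands in the 250 bases before each start, TGATTGG was present in 7 of the 10 listed genes with an entry (70%), Rfx5 included, and in 7.23% of all 32851 promoters. Here too a listed gene counted if any of its promoters held the motif, and the share over all is per promoter.

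Costimulatory genes did not follow the MHC genes as a group: 4 of 14 were called in favour of IS and 3 in favour of cauda. Cd86, the ligand of CD28 on T cells, was at 339, 343, 229 and 207 CPM in IS and 78.3, 132, 107 and 96.5 CPM in cauda (log2 fold change 1.39 ± 0.18 SE, adjusted p = 0.000613); its groups did not overlap and lay in the order opposite to that of H2-Aa. The B cell co-receptor gene Cd72 (519 against 197 CPM, log2 1.35) and the adhesion ligand gene Icam1 (143 against 84.3 CPM, log2 0.80) were higher in IS too.

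Genes of conventional dendritic cells were higher in cauda, 14 of 20 against 0 in IS, with a median log2 of -1.67 (13 to 15 with 1 library left out). Of the cDC2 branch, higher in cauda were Cd209a, a C-type lectin, at 402, 376, 159 and 311 CPM in IS and 1749.9, 1558, 663 and 831 CPM in cauda (log2 fold change -1.89 ± 0.22 SE, adjusted p = 0.000372), the lectin Clec10a (129 against 571 CPM, log2 -2.13) and the branch's transcription factor Irf4 (29.0 against 101 CPM, log2 -1.87). Flt3, the growth factor receptor of dendritic cells (59.4 against 194 CPM, log2 -1.70), and Zbtb46, a factor restricted among leukocytes to that lineage (44.2 against 106 CPM, log2 -1.26), rose with them. Of the cDC1 branch, the chemokine receptor gene Xcr1 was higher in cauda (7.63 against 21.8 CPM, log2 -1.52), while Irf8 (631 against 565 CPM, log2 0.17, adjusted p = 0.584) and Clec9a (16.7 against 20.1 CPM, log2 -0.23, 0.725) did not pass the test. Kit, the stem cell factor receptor gene, differed most of the list in log2 (-3.39) and is also a mast cell gene, and mast cell markers moved in the same direction (summed, 33.0 to 119 CPM in IS and 1127 to 4249 CPM in cauda). Their part in the list's count was not tested.

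Monocyte genes moved further still. Of 20, 15 were higher in cauda and 0 in IS, with a median log2 of -1.93 (13 to 15 with 1 library left out). Ccr2, the receptor that brings monocytes out of the bone marrow and into tissue, was at 718, 565, 398 and 1081 CPM in IS and 1846, 2599.6, 2212 and 3141 CPM in cauda (log2 fold change -1.82 ± 0.28 SE, adjusted p = 0.00156). The calcium-binding proteins S100a4 (36.9 ± 13.7 CPM in IS and 240.4 ± 28.5 CPM in cauda, log2 -2.75) and S100a6 (50.9 ± 12.1 CPM in IS and 285 ± 36.5 CPM in cauda, -2.48), fibronectin (Fn1, 43.3 ± 37.5 CPM in IS and 332 ± 221 CPM in cauda, -3.18) and the actin-binding Lsp1 (-2.08) were higher in all 4 cauda libraries than in any IS library. Ly6c2, which marks classical monocytes, was at 188, 33.9, 39.2 and 49.5 CPM in cauda, where replicate 1 stood apart, and 8.24, 15.6, 11.0 and 14.6 CPM in IS (log2 fold change -2.60 ± 0.59 SE, adjusted p = 0.0137). It was not called without IS replicate 1 (adjusted p = 0.0525), its log2 was -1.62 without cauda replicate 1, and the gene has a near-identical copy. Treml4 (27.0 against 18.2 CPM, log2 0.60, adjusted p = 0.173) and Ace (24.6 against 16.9 CPM, log2 0.39, 0.579), both found on patrolling monocytes, did not pass the test. The abundant lysozyme gene Lyz2 was also higher in cauda (log2 -0.67, adjusted p = 0.0207), a call lost without any of IS replicates 3 and 4 and cauda replicates 2 and 4 (adjusted p up to 0.0754).

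Genes of the actin cytoskeleton and of vimentin and its companions were higher in cauda, 20 of 22 against 0 in IS, with a median log2 of -1.46 and the same count in each fit that left out 1 library. Crip1, a small LIM-domain protein, was at 264, 249, 200.5 and 254 CPM in IS and 1183, 1321, 951 and 1217 CPM in cauda (log2 fold change -2.27 ± 0.13 SE, adjusted p = 9.67e-06). Vim was at 187, 186, 155 and 238 CPM in IS and 793, 898, 886 and 908 CPM in cauda (log2 fold change -2.19 ± 0.16 SE, adjusted p = 4.97e-05). The lowest cauda library was 3.61 times the highest IS library for Crip1 and 3.32 times for Vim. The giant scaffold protein Ahnak (log2 -2.47), the galectin Lgals1 (-1.61) and the actin-sequestering Tmsb10 (-1.92) followed, and beta-actin itself (Actb) differed less and with overlapping ranges (-0.78). Tln1, which links integrins to actin, did not pass the test (-0.26, adjusted p = 0.397). S100a4 and Lsp1 of the monocyte list touch the same structures, so the lists are not independent.

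**Figure D3:**
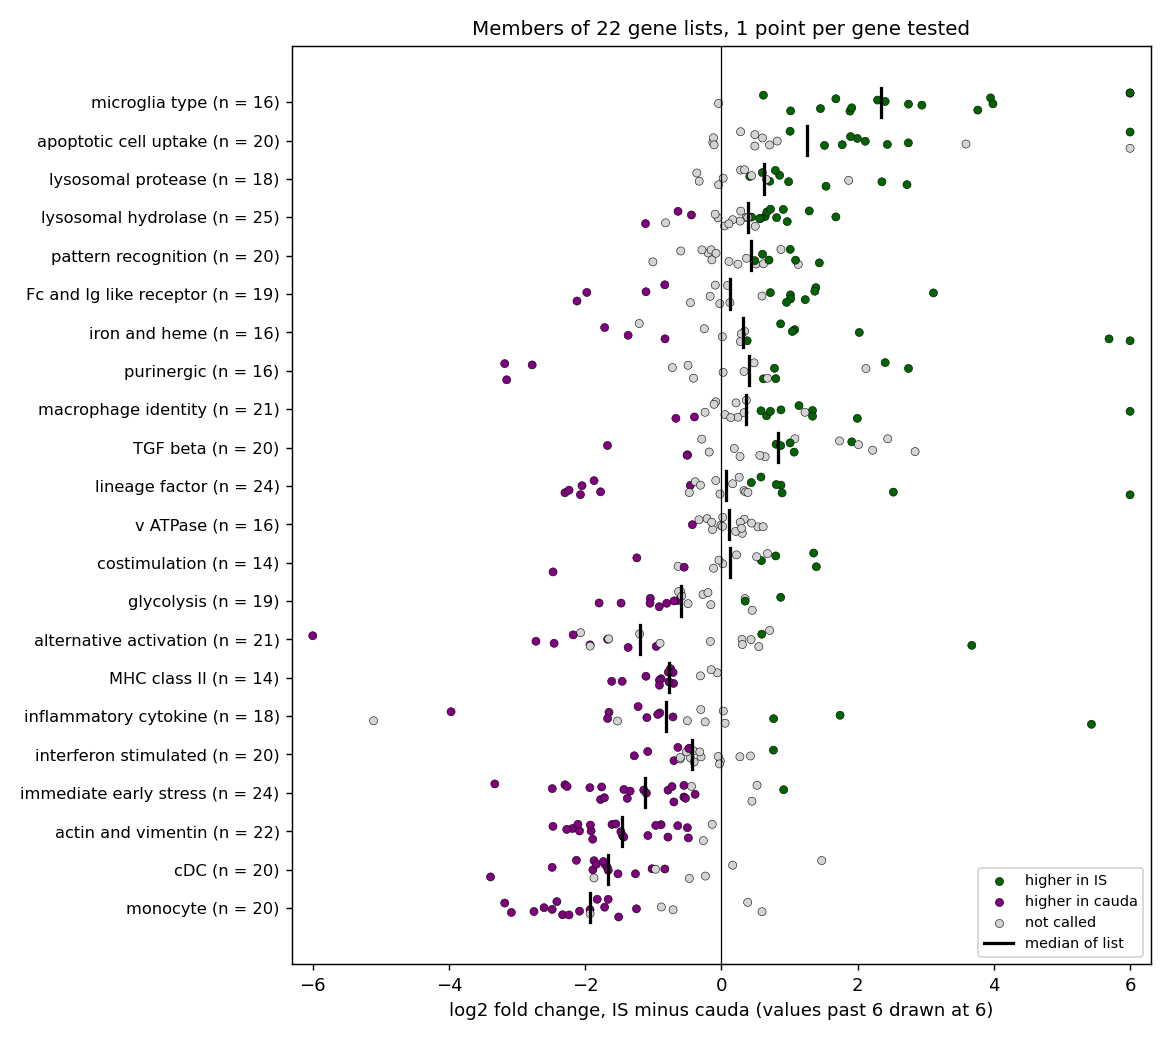
Log2 fold change (IS minus cauda) of each tested member of 22 gene lists (points, coloured by call), with the median of each list (black bars). Members of the microglia-type list sit to the right of 0 except Cst3, and nearly all members of the monocyte, dendritic cell, actin and immediate-early lists sit to the left.

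Retnla (ENSMUSG00000061100), a secreted product of macrophages under interleukin-4, gave the largest difference in favour of cauda among the genes at 50 CPM or more. It was at 55.2, 8.90, 42.0 and 73.9 CPM in IS, 1502, 1559 and 1578 CPM in caput/corpus and 1828, 4839, 3264 and 6213 CPM in cauda, a 91.5-fold difference (log2 fold change -6.52 ± 0.63 SE, adjusted p = 0.000162), and the lowest cauda library was 24.7 times the highest IS library. Aldh1a2, which makes retinoic acid (7.76 against 35.0 CPM, log2 -2.18), the lectin gene Cd209d (4.46 against 29.5 CPM, log2 -2.72) and the lectin gene Mgl2 (259 against 499.8 CPM, log2 -0.96) were higher in cauda with it. Tgm2, the crosslinking enzyme transglutaminase, is also induced by interleukin-4 and was higher in IS, at 63.1, 103, 108 and 78.7 CPM against 1.88, 5.18, 8.22 and 15.8 CPM (log2 fold change 3.68 ± 0.47 SE, adjusted p = 0.000647). The mannose receptor gene Mrc1 did not pass the test (754 against 621 CPM, log2 0.30, adjusted p = 0.201), and Arg1 (1.26 against 0.979 CPM, log2 0.44) and Il10 (4.33 against 3.09 CPM, log2 0.55) were low in both regions. Of 21 genes of alternative activation, 8 (38.1%, against 9.06% of all genes) were higher in cauda and 2 (9.52%, against 7.4%) in IS. The IS count was near the background. The cauda count was 11 without cauda replicate 1 and 5 without IS replicate 1 or 3 or cauda replicate 2, and the IS count was 1 without IS replicate 2 or 3.

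Chemokine genes went both ways. Ccl9 and Ccl6, close relatives that attract CCR1-bearing cells, were higher in cauda (Ccl9: 195 ± 53.7 CPM in IS and 1059.6 ± 170.3 CPM in cauda, log2 -2.47; Ccl6: 386 ± 71.1 CPM in IS and 1545 ± 308 CPM in cauda), while Cxcl16, the membrane-bound ligand of CXCR6, and Ccl12, a ligand of CCR2, were higher in IS (1.15 and 1.29). Of 21, 7 were higher in IS, 4 without IS replicate 2 or 4 or cauda replicate 4, and 4 in cauda. Among inflammatory cytokines and their control genes, 8 of 18 were higher in cauda and 3 in IS. The NF-kappa-B inhibitor gene Tnfaip3 (92.1 against 294 CPM, log2 -1.67) and the NF-kappa-B subunit gene Nfkb1 (173 against 285 CPM, log2 -0.71) were higher in cauda. Il1a (134 ± 36.4 CPM in IS and 38.6 ± 14.3 CPM in cauda) was higher in IS (log2 1.74, adjusted p = 0.0153; 0.0561 without IS replicate 3). Il1b (476 against 576 CPM, log2 -0.24, adjusted p = 0.551) and Tnf (67.4 against 96.6 CPM, log2 -0.50, 0.0886) did not pass the test. This list was fragile: when 1 library was left out its cauda count ranged from 3 (IS replicate 1, IS replicate 3 or the second caput/corpus library left out) to 6, and its IS count was 0 without IS replicate 3 and 1 without cauda replicate 4. The cauda count was 4 without IS replicate 2 or cauda replicate 2 or 3 and 5 without IS replicate 4 or cauda replicate 1.

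Immediate-early and stress genes respond within minutes to activation and also to the handling of tissue. Of 24 members, 20 were higher in cauda and 1 (4.17%, against 7.4% of all genes) in IS (median log2 -1.12). Fosb, a partner in the AP-1 factor, was at 23.5, 19.9, 14.5 and 35.3 CPM in IS and 141, 106, 177 and 96.4 CPM in cauda (log2 fold change -2.48 ± 0.31 SE, adjusted p = 0.000536). The dissociation-responsive genes Ier2 (510.0 ± 77.9 CPM in IS and 1132 ± 395 CPM in cauda, log2 -1.10) and Dusp1 (797 ± 435 CPM in IS and 1952 ± 899 CPM in cauda, -1.34), the zinc finger factor gene Klf2 (-1.43) and the orphan receptor gene Nr4a1 (248 ± 122 CPM in IS and 1197 ± 575 CPM in cauda, -2.24) rose together. Jun did not pass the test (1127 against 1549.8 CPM, log2 -0.44, adjusted p = 0.0842). The cauda count was 14 to 21 when 1 library was left out and 9 without the title series in the model. The IS count was 0 without IS replicate 1 or 3 or cauda replicate 2 or 4, and 2 without cauda replicate 1.

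Interferon-induced genes showed 5 of 20 higher in cauda and 1 in IS, where the background over all genes was 9.06% and 7.4%. Ifitm3 (444 ± 65.4 CPM in IS and 1075 ± 122 CPM in cauda, log2 -1.28) and Ifitm2 (-1.08), membrane proteins that block viral entry, and the antiviral GTPase gene Mx1 (-0.70) were higher in cauda, and the tetherin gene Bst2 in IS (0.76). Ifit1 (67.5 against 67.5 CPM, log2 -0.02, adjusted p = 0.965) and Irf7 (285 against 374 CPM, log2 -0.41, 0.0928) did not pass the test. The cauda count was 8 without cauda replicate 2 and 3 without IS replicate 2 or 3 or cauda replicate 4.

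Purinergic receptors separated the regions by subtype. Beside P2ry12 and P2ry13, the ATP-gated channel gene P2rx7 (261 against 151 CPM, log2 0.80) was higher in IS. Entpd1, the CD39 enzyme that hydrolyses ATP and ADP, was also higher in IS (187 against 108 CPM, log2 0.78, adjusted p = 0.0146), though not without IS replicate 3 (0.0572). P2ry1, the third ADP receptor, was higher in cauda, at 2.37, 3.87, 3.08 and 4.06 CPM in IS and 57.8, 16.3, 21.3 and 25.1 CPM in cauda (log2 fold change -3.18 ± 0.63 SE, adjusted p = 0.00661), and so was the adenosine receptor gene Adora2b (5.27 ± 1.94 CPM in IS and 37.6 ± 17.8 CPM in cauda, log2 -2.78). Of 16 genes, 5 were higher in IS, 3 without IS replicate 3, and 3 in cauda.

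Immune receptors also divided. Lilra5, an activating immunoglobulin-like receptor, had the smallest p of its list, at 311, 296, 229 and 219.6 CPM in IS and 30.8, 30.2, 34.6 and 25.0 CPM in cauda (log2 fold change 3.11 ± 0.13 SE, adjusted p = 1.28e-06). Siglece, an inhibitory receptor for sialic acid, was higher in IS (287 against 111 CPM, log2 1.37) and Cd300lb, an activating receptor, in cauda (24.2 against 108 CPM, log2 -2.12). The shared signalling chain Fcer1g did not pass the test (1510.2 against 1388 CPM, log2 0.13, adjusted p = 0.469). Of 19 Fc and immunoglobulin-like receptors, 8 were higher in IS and 4 in cauda, with the same counts in each fit that left out 1 library. Of 20 pattern recognition genes, 6 were higher in IS, 3 without IS replicate 1 or 2, and 0 in cauda. They included Nod1, a cytosolic sensor of peptidoglycan (52.0 against 25.7 CPM, log2 1.01), and Clec4n, the fungal receptor dectin-2 (105 against 38.8 CPM, log2 1.44). Tlr2 did not pass the test (403 against 338 CPM, log2 0.24, adjusted p = 0.151).

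Genes that handle iron were higher in IS for 7 of 16 members and higher in cauda for 3. Slc40a1, the iron exporter ferroportin, was at 172, 199, 177 and 85.8 CPM in IS and 0, 2.10, 6.54 and 4.00 CPM in cauda, without overlap (log2 fold change 5.69 ± 0.92 SE, adjusted p = 0.00236). Cp, the ferroxidase that works with it, followed (287 ± 28.8 CPM in IS and 72.5 ± 27.4 CPM in cauda, log2 2.02), as did Lcn2, which binds bacterial iron chelators (276 ± 161 CPM in IS and 0.700 ± 0.587 CPM in cauda, 8.79). Slc48a1, which moves heme out of the phagolysosome, was higher in cauda (104 against 183 CPM, log2 -0.83), and the ferritin gene Fth1 did not pass the test (5195 against 4273 CPM, log2 0.28, adjusted p = 0.108). Lcn2, Cp and Slc40a1 are also made by epithelia, and epithelial markers moved the same way as these genes (values below); their part in this result was not tested.

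Glycolytic genes were higher in cauda for 8 of 19 (42.1%, against 9.06% of all genes) and higher in IS for 2 (10.5%, against 7.4%). Of those 2, 1 was left in 7 of the 11 fits without 1 library. Pfkp, a phosphofructokinase, was at 51.0, 71.5, 49.1 and 56.4 CPM in IS and 238, 178, 155 and 221 CPM in cauda (log2 fold change -1.80 ± 0.17 SE, adjusted p = 0.000132). Ldha (219.6 against 452 CPM, log2 -1.05) and Eno1 (116 against 241 CPM, log2 -1.04) rose with it, and Hk3, the hexokinase of myeloid cells, was higher in IS (95.2 against 51.7 CPM, log2 0.87). Of 19 cell cycle genes, 3 (15.8%) were called in favour of cauda, where 9.06% of all genes were, and 0 in favour of IS. The mitotic kinase gene Aurkb was higher in cauda (20.2 against 46.4 CPM, log2 -1.19). The proliferation marker Mki67 did not pass (29.9 against 34.6 CPM, log2 -0.18, adjusted p = 0.499). That count was 9 without cauda replicate 1 and 1 without IS replicate 1, 2 or 4.

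Transcription factors that shape macrophages were balanced, 7 of 24 higher in IS and 7 in cauda, and they included a pair of relatives that moved apart. Bhlhe41 was at 22.3, 20.8, 67.4 and 57.2 CPM in IS and 4.54, 2.30, 16.4 and 6.72 CPM in cauda (log2 fold change 2.52 ± 0.41 SE, adjusted p = 0.00247). Bhlhe40 was at 74.9, 128, 64.4 and 69.2 CPM in IS and 555, 397, 283 and 213 CPM in cauda (log2 fold change -2.07 ± 0.21 SE, adjusted p = 0.000196). Neither gene's groups overlapped. Besides Sall1 and Maf, Nfe2l2, the oxidative stress regulator NRF2 (412 against 223 CPM, log2 0.89), and Runx1 (285 against 161 CPM, log2 0.81) were higher in IS, while Irf4 and Nr4a1 were higher in cauda.

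The 12 largest differences in favour of IS, among genes at 50 CPM or more whose groups did not overlap, were of another kind, and most of them encode proteins that the epididymal epithelium secretes. Gpx5, the secreted glutathione peroxidase of the epididymis, was at 875, 1146, 716 and 446 CPM in IS and 0.355, 1.02, 0.637 and 0.483 CPM in cauda (log2 fold change 10.33 ± 0.35 SE, adjusted p = 2.2e-07). The lipocalin genes Lcn8 (267 ± 77.2 CPM in IS and 0.0871 ± 0.0728 CPM in cauda) and Lcn9 (347 ± 125 CPM in IS and 0.129 ± 0.101 CPM in cauda), the ribonuclease-like Rnase10 (230.1 ± 81.3 CPM in IS and 0.0746 ± 0.0300 CPM in cauda), the beta-defensins Defb20 (222 ± 66.8 CPM in IS and 0.112 ± 0.0710 CPM in cauda), Defb48 and Defb25, the cystatins Cst8, Cst11 and Cst12, and Ly6g5c and Teddm1a made up the rest. Cst8, Cst11, Ly6g5c and Teddm1a had 1 to 3 reads over all 4 cauda libraries; the scaled read ratio was 4351 for Cst11 (95% counting interval 1488 to 21101). Cldn2, a tight junction protein, Krt23, a keratin, and Tgfa, a growth factor, had 0 reads in the 4 cauda libraries, so they were at least 549-fold, 506-fold and 424-fold higher in IS against a floor of 3 reads over the group.

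Of 24 epithelial markers tested, 17 were called in favour of IS and 2 (8.33%, against 9.06% of all genes) in favour of cauda. Some listed genes, such as Lcn5, belong to particular parts of the epithelium. The count and the sum of the list therefore do not measure epithelial RNA as a whole in each region. The list summed to 1486 to 3374 CPM in the IS libraries, 425 to 789 CPM in caput/corpus and 23.2 to 58.2 CPM in cauda. The general epithelial adhesion gene Epcam was at 9.62, 83.0, 12.2 and 15.0 CPM in IS, highest in replicate 2, and 3.51, 0.880, 2.61 and 0.659 CPM in cauda (log2 fold change 3.82 ± 0.81 SE, adjusted p = 0.00977). Lcn5, of the more distal epithelium, was low in both (1.32 against 0.0449 CPM, log2 4.82). The markers in favour of cauda, Serpina1f (0.00885 against 1.74 CPM, log2 -6.94, 1 read in IS) and Wfdc13 (0.00939 against 1.81 CPM, log2 -6.88, 1 read in IS), were rare, and their calls were lost without IS replicate 1 (both) or without IS replicate 2 or 3 (Wfdc13). The part of epithelial RNA in the other results was not tested.

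The 12 largest differences in favour of cauda, by the same rule, were Retnla and 11 others, 7 of which are genes of mast cells. Cpa3, the mast cell carboxypeptidase, was at 22.3, 4.81, 10.0 and 6.99 CPM in IS and 279.9, 913, 252 and 213 CPM in cauda (log2 fold change -5.14 ± 0.55 SE, adjusted p = 0.000266), with cauda replicate 2 far above the others. The chymase genes Mcpt4 (log2 -5.22) and Cma1 (-4.74), the tryptase genes Tpsb2 (-4.81) and Tpsab1 (-4.62), the receptor gene Mrgprb1 (-6.51) and the factor gene Gata2 (-4.20) went with it. Lyz1, a lysozyme gene next to Lyz2 and similar to it (35.7 ± 21.9 CPM in IS and 542 ± 238 CPM in cauda, -4.11), the protease inhibitor gene Serpinb1a (-3.51), the membrane protein gene Emp1 (-3.41) and the calcium channel gene Ryr1 (-3.39) completed the 12. All 10 mast cell and basophil markers were higher in cauda, among them Fcer1a, a chain of the IgE receptor (1.13 ± 0.847 CPM in IS and 47.5 ± 33.4 CPM in cauda), and their sum was 33.0 to 119 CPM in IS, 798 to 1151 CPM in caput/corpus and 1127 to 4249 CPM in cauda. Genes read in cauda with 0 reads in IS were Rgs13, a regulator of G protein signalling (at least 272-fold higher), and the phosphodiesterase gene Pde1c (at least 199-fold higher). The protease gene Ctsg had 1 read in IS and 0.0355, 19.6, 3.94 and 4.57 CPM in cauda.

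**Figure D4:**
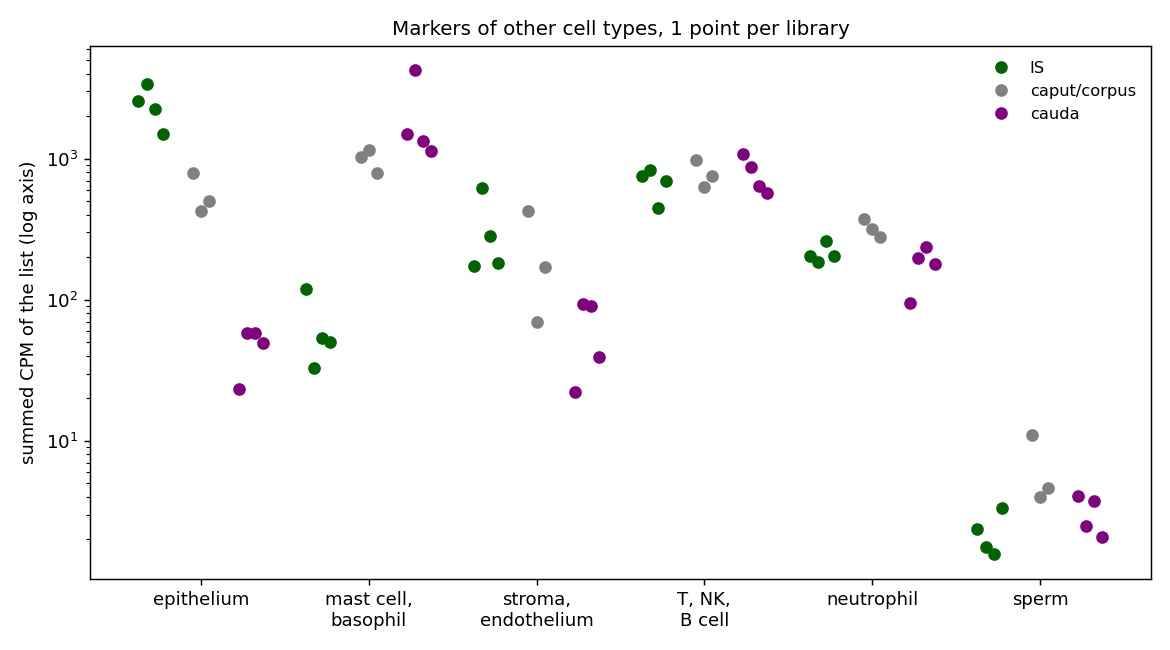
Summed level (CPM, log axis) of the marker lists of 6 other cell types in each library (points), by region. The epithelial sum is highest in IS, the mast cell sum is lowest in IS and highest in cauda replicate 2, and the T, NK and B cell and sperm sums overlap between IS and cauda.

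The sums of the other cell types differed less. Stromal and endothelial markers summed to 172 to 623 CPM in IS and 22.1 to 92.7 CPM in cauda, without overlap. All 14 tested had a log2 above 0, with a median of 1.85, and 2 were called, all in IS. The called genes were the smooth muscle actin gene Actg2 (122 against 1.12 CPM, log2 6.74) and the fibroblast receptor gene Pdgfra (10.4 against 0.113 CPM, log2 6.55). Col1a1 did not pass (15.1 against 4.03 CPM, log2 1.92, adjusted p = 0.387). T, NK and B cell markers summed to 450.5 to 828 CPM in IS and 574 to 1079 CPM in cauda, with Cd3e (5.73 against 2.17 CPM, log2 1.40) and Nkg7 (14.6 against 9.02 CPM, log2 0.69) not called. Of 14, 2 were called, both in favour of IS, and 0 without IS replicate 2, IS replicate 4 or cauda replicate 4. Neutrophil markers summed to 185 to 263 CPM in IS and 94.5 to 237 CPM in cauda. In IS most of the sum came from Csf3r (145 to 208 CPM). Macrophages also carry this receptor, and it was higher in IS (1.34). Of the 2 markers tested, the other was not called, but it was called in favour of cauda without cauda replicate 1. The defining neutrophil gene S100a8 had 4 reads in the IS and 10 reads in the cauda libraries. Sperm markers summed to 1.56 to 3.32 CPM in IS and 2.07 to 4.05 CPM in cauda, and 5 of the 8 were too low to test.

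The direction of the difference recurred in the separate libraries of both title series. Of the 2488 called genes, 2462 had a value in both, and all 2462 had the same sign in Maj3 and in Maj4, which the choice of called genes partly fixes. Among the 276 list genes that were not called, 204 had the same sign. Cx3cr1 was higher in IS by a log2 of 1.36 in Maj3 and 1.38 in Maj4, Ctsd by 2.98 and 2.58, and Apoe by 2.28 and 2.05. H2-Aa stood at -0.81 and -0.89, Ccr2 at -1.74 and -1.85, and Retnla at -6.66 and -6.34. The Maj3 libraries alone called 30 genes and the Maj4 libraries alone 1144.

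**Figure D5:**
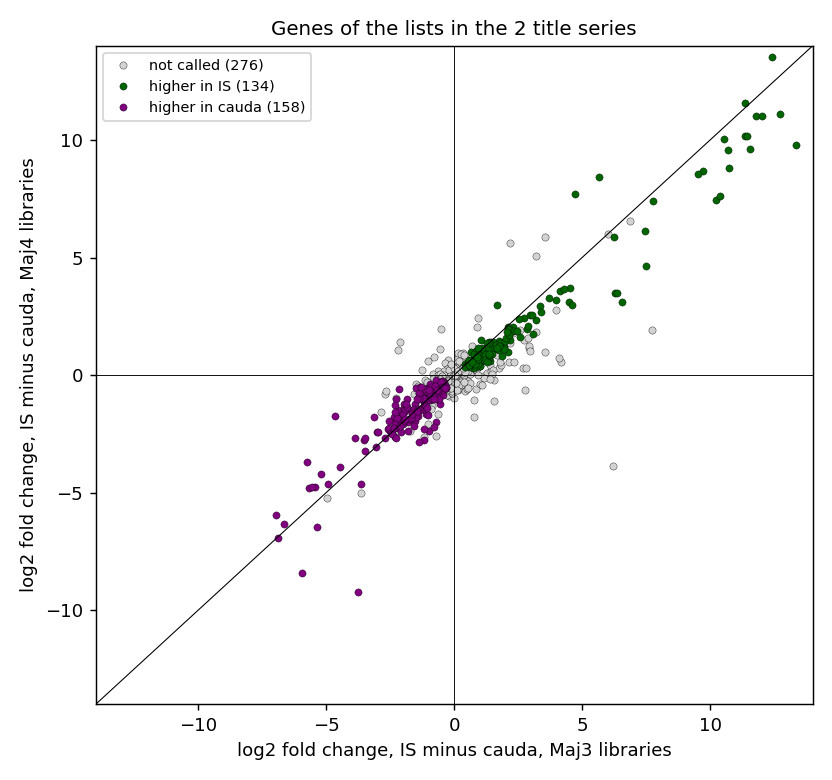
Log2 fold change (IS minus cauda) of 568 list genes in the Maj4 libraries (vertical axis) against the Maj3 libraries (horizontal axis), coloured by their call in the fit of all libraries, with the line of equal values. The 134 genes higher in IS and the 158 higher in cauda lie in quadrants of equal sign, a position that their choice partly fixes, and the 276 genes that were not called scatter around 0.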

How the data were processed

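RNA of sorted EGFP+ cells was sequenced on a HiSeq2500, per the labels' protocols. STAR, HTSeq, edgeR and the build mm9 are named in the submitters' processing notes, which give no versions. The deposited files hold read counts per gene for each library, whose file names describe them as not stranded, and 1 table of RPKM values for all 11 libraries, so a gene and its antisense partner cannot be told apart. The authors' RPKM values times gene length were whole multiples of the smallest value (within 0.001) for all 37583 genes in each column, and these recovered reads were tested. For 3 libraries the deposited count file held other reads than the column of that label. In the count files, reads that fell on no gene were 7.75% to 24.8% of the totals, higher in Maj4. Reads that aligned to more than 1 place were 12.5% to 35.8%, higher in Maj3. Reads ambiguous between genes were 1.74% to 2.12%. All of these were left out.

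Counts were scaled by TMM and filtered with filterByExpr by region, and edgeR 4.0.16 in R 4.3.3 (glmQLFit, glmQLFTest) was fitted to all 11 libraries with region and title series, with Benjamini-Hochberg adjustment over 15116 genes and a threshold of 0.05. CPM use the TMM library sizes, and CPM error is SD over 4 libraries. SE of log2 fold changes is the estimate over the square root of F. Counting intervals are at 95% and cover counting error only. The fit was tested on simulated data. Symbols came from GENCODE M21 (32860 of 37583 IDs), and promoters from RefSeq (GRCm38.p6), used for sequence only.

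The members and all 34 gene lists (595 symbols, 592 found) were chosen with earlier results of these data known. Genes named were Cx3cr1; in each direction the 12 called genes with the largest log2 value, a mean of at least 50 CPM in the higher group and groups that did not overlap; list members with the smallest p, the most abundant members that were not called, and members of small counts; and called genes with at most 3 reads in 1 group and 5 CPM in the other. Alternatives were DESeq2 1.42.0, RLE scaling, other filters, 8 libraries, no title series, a replicate block, each title series alone, each library left out, other sources of reads, limma 3.58.1 (voom with quality weights, and log2 of RPKM + 1) and robust edgeR.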

Additional observations from a re-analysis of the deposited data

Results flagged for a closer look

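In 28 of 373 groups of 4 libraries checked, 1 library stood apart from the other 3, judged by its gap to the nearest value over the range. That rule flags about 1 in 20 groups of independent, normally distributed values. The genes checked are not independent and CPM need not be normal, so the 28 cannot be set against that rate. Where 3 libraries had 0 reads, any read in the other was flagged. Cauda replicate 1 had reads on 13434 genes against 17168 to 17789 in the others. In the same library Irf8 (367 CPM against 607 to 643) and Clec9a (7.56 against 22.8 to 25.0) were low, and Ly6c2 (188 against 33.9 to 49.5), Irf7 (518 against 319 to 338), Pde1c (13.3 against 2.95 to 3.52) and Cst8 (0.0355 against 0) were high.

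Cauda replicate 2 held the mast cell genes at several times the level of the other cauda libraries: Mcpt4 406 CPM against 102 to 153, Cpa3 913 against 213 to 279.9, Tpsb2 1399 against 382 to 551, Cma1 1102 against 263 to 352, and Fcer1a 97.4 against 28.3 to 33.7. It was also highest for Cd209d (48.4 against 20.7 to 25.0), Msr1 (90.2 against 60.1 to 64.6) and Pdgfra (0.406 against 0 to 0.0439). In cauda replicate 3, Sall1 was at 0.116 CPM and at 0 in the others.

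Among IS libraries, Epcam was 83.0 CPM in replicate 2 against 9.62 to 15.0. Replicate 2 was also high for Apoc1 (36.4 against 21.4 to 22.8) and Bhlhe40 (128 against 64.4 to 74.9). Replicate 4 was low for C1qa (2817 against 3566 to 3647), Slc11a1 (429 against 491 to 502), Entpd1 (137 against 197 to 209) and Nfe2l2 (309 against 444 to 451). Replicate 3 was low for Tmsb10 (23.4 against 33.4 to 33.9) and high for Csf3r (208 against 145 to 156). Single reads set apart Serpina1f in replicate 1 (0.0354 CPM), Wfdc13 in replicate 2 (0.0376) and Ctsg in replicate 4 (0.0432), each at 0 elsewhere.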

How the results depend on the processing

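The count of 2488 genes fell to 1481 without the title series in the model, to 30 in the Maj3 libraries alone and 1144 in the Maj4 libraries alone (fewer libraries each) and to 4 with the count files as labelled, and it rose to 4294 with voom and quality weights. When each library was left out in turn it ranged from 1641, without IS replicate 3, to 3124, without cauda replicate 1, and 2344 of those 3124 were called with all libraries. The other alternatives gave counts within 1.5 times: 3595 with DESeq2, 2419 with RLE scaling, 2260 without a filter, 2469 with a CPM filter, 1965 with the 8 IS and cauda libraries only, 2409 with the 8 libraries of 1 source, 3068 with limma on RPKM and 2451 with robust edgeR. The share higher in IS was 45.0% and lay between 43.3% and 53.4% in these. The interaction with title series stayed at 0 genes without cauda replicate 1 and without IS replicate 2.

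With the count files as labelled, the log2 value changed sign for Tnfaip3 (0.36), Ier2 (0.14), Dusp1 (0.0421), Bhlhe40 (0.0297) and Lcn5 (-0.45), none of them called there; the cause was not tested. Of 155 named genes that were called, 145 were called in all 11 fits without 1 library and 0 changed sign. The replicate block, by the number in the labels, gave 2362 genes. Deviations from the region means of same-numbered IS and cauda libraries correlated at 0.23, 0.52, 0.48 and 0.44. For differently numbered libraries of the same series the values were 0.40, 0.19, 0.43 and 0.41. After the title series was removed they were -0.50, 0.47, -0.31 and -0.44 for the same number and 0.42, -0.56, -0.43 and -0.51 for different numbers. Residuals sum to 0 within each region and series, which constrains these correlations, so they cannot show whether the numbers pair libraries.

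Limits are the 4 libraries per region, the pooled and unnamed animals, 1 cauda library with few genes read, and the 3 libraries with 2 sources of reads. Depth of 16873180 to 31737132 reads leaves genes under a few reads per library untested (22467 of 37583).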

Other observations

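Genes of the ribosome, which were not among the lists and were picked after their values were seen, lay mostly on the cauda side: of 76 ribosomal protein genes tested, 40 were higher in cauda and 1 was higher in IS, with a median log2 of -0.62 against 0.05 over all genes. Their mean levels summed to 3098 CPM in IS and 5352 CPM in cauda.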
